A study of Mus musculus with 4 samples.

Results

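The neurons described here express one or the other of a pair of odorant receptor genes, Olfr55 and Olfr239, that lie next to each other on mouse chromosome 17. They were chosen by the receptor identity that the authors deposited for each cell, with no other condition. Olfr55 neurons numbered 75 and Olfr239 neurons 71, so that the comparison used 146 of the 9791 neurons with a receptor identity and of the 21809 cells in all. The cells were dissociated from the main olfactory epithelium of 4 male C57BL/6 mice (C57BL/6J in the study's methods) aged 8 weeks, which were not exposed to an odorant for the experiment, and live nucleated cells were sorted before capture. One droplet library was made per mouse, and each captured transcript carried a unique molecular identifier (UMI). Each mouse gave both populations, with 20, 21, 15 and 19 Olfr55 neurons and 23, 17, 20 and 11 Olfr239 neurons in mice 1 to 4. The mouse was the replicate (n = 4), and the UMIs of a population were summed within each mouse. A level is given throughout as UMIs of a gene per 10000 UMIs of all non-receptor genes in such a sum.

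A mature olfactory sensory neuron transcribes a single odorant receptor gene from a repertoire spread over many chromosomal clusters. The receptor sets which odorants the neuron answers to, and neurons that share a receptor send their axons to shared glomeruli in the olfactory bulb. Odorant binding activates the G protein subunit encoded by Gnal, then adenylyl cyclase 3 and a cyclic nucleotide-gated channel. Axon guidance and adhesion molecules, such as ephrins and their receptors and the Kirrel proteins, are known to take part in the sorting of these axons, and the levels of several of them differ between neurons that express different receptors. The comparison asks how far the rest of the transcriptome differs between neurons whose receptors are close both in the genome and in sequence.

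In the GRCm38 annotation (GENCODE M21), Olfr55 (ENSMUSG00000094891) spans 33168447 to 33180753 and Olfr239 (ENSMUSG00000093884) spans 33191302 to 33202506 of chromosome 17, both on the + strand. The genes are 10548 bases apart and their start codons 22646 bases apart. They belong to a group of 4 receptor genes with Olfr1564 (33211206 to 33221690, - strand) and Olfr63 (33264676 to 33275644, + strand). Both encode proteins of 315 residues, of which 311 are identical (98.7%). Each was the closest relative of the other among 1155 receptors compared. Olfr1564 came next, with 94.97% identity to the Olfr55 protein and 95.28% to the Olfr239 protein, and Olfr63 followed with 67.7% to either. The coding sequences of 948 bases differ at 10 positions, counted from 1 at the A of the start codon, and written with the Olfr55 base first: T114A, A259T, C345A, T348C, C420T, G436A, A501C, A532G, T567C and A602G. At the protein level the differences are T87S, A146T, T178A and E201G, counted from the first methionine.

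Coding bases 304 to 603 hold 8 of the 10 differences and are shown to let the closeness of the receptors be seen. They were read from the annotated transcripts, lie at chr17:33176719-33177018 (Olfr55) and chr17:33199365-33199664 (Olfr239) of GRCm38, + strand, and run 5′ to 3′, with capitals marking the bases that differ.
Olfr55: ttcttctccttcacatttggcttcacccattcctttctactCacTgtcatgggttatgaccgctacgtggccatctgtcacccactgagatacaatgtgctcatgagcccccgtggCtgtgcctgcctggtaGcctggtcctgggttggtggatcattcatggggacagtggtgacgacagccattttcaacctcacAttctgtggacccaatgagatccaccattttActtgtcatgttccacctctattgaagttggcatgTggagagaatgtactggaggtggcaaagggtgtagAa
Olfr239: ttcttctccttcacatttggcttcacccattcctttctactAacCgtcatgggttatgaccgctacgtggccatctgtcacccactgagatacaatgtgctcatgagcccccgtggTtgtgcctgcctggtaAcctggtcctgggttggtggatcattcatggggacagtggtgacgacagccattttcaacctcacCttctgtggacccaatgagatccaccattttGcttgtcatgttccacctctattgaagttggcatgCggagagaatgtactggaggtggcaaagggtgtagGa
With sequences this close, some reads from the 3′ ends may not tell the genes apart. How such reads were counted was not examined here. Of the 90-base windows of the longest annotated 3′ untranslated region, 39.6% of those of Olfr55 occurred unchanged in an Olfr239 transcript, and 54.2% of those of Olfr239 occurred in an Olfr55 transcript. These shares are for GENCODE M21 and may not describe the re-annotated 3′ ends that the authors counted on, which were not used here.

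The authors set the identity of a neuron by its most highly expressed receptor, so the assigned receptor leads within a population by construction. Olfr55 neurons held 939 Olfr55 UMIs against 9 Olfr239 UMIs, the latter in 7 of 75 neurons, and Olfr239 neurons held 924 Olfr239 UMIs against 17 Olfr55 UMIs, in 15 of 71 neurons. Per 10000 UMIs of all genes the assigned receptor stood at 18.7, 30.4, 22.4 and 22.2 in the Olfr55 neurons of mice 1 to 4 and at 24.7, 25.8, 25.7 and 20.5 in the Olfr239 neurons. The ranges of the populations overlapped. Exactly 1 receptor gene had a UMI in 51 of the Olfr55 neurons (68.0%) and in 45 of the Olfr239 neurons (63.4%). Receptor genes were left out of every comparison below.

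The library totals ranged from 23157467 to 32382702 UMIs, and the sums compared held 42892 to 131478 non-receptor UMIs. Median UMIs per neuron were 5069.5, 4168, 7797 and 4245 for Olfr55 and 5239, 4503, 6688.5 and 4113 for Olfr239 in mice 1 to 4, so depth differed more between mice than between populations. The mean log2 UMI count per neuron was 12.3 ± 0.43 for Olfr55 and 12.2 ± 0.34 for Olfr239 (SD, n = 4 mice). The difference was 0.11 ± 0.11 and was above 0 in 4 of 4 mice, with p = 0.13 in a two-sided exact sign-flip permutation test, the smallest p that 4 mice allow. At an equal depth of 3000 non-receptor UMIs, 1662 ± 30.5 non-receptor genes were detected per Olfr55 neuron and 1632 ± 13.5 per Olfr239 neuron, again higher in 4 of 4 mice with the same smallest p of 0.13 (exact sign-flip permutation test). Shallower neurons were left out of this count, 8 for Olfr55 and 10 for Olfr239. Among all cells 54 barcode sequences were seen in more than 1 library, and 1 of the 146 neurons carried such a barcode.

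Both populations carried the markers of mature ventral neurons. Omp, the marker of mature olfactory neurons, stood at 64.4 to 80.2 in the Olfr55 sums and 60.6 to 65.9 in the Olfr239 sums. Nfix, a marker of ventral neurons, stood at 4.73 to 7.69 and 4.43 to 5.802, whereas the dorsal marker Nqo1 had 1 UMI in all Olfr55 neurons and 2 in all Olfr239 neurons. Gap43, a marker of immature neurons, had 5 UMIs in either population. Of 34 markers of other cell types none passed the filter on low counts. Their summed level was 0.96 to 1.65 in the Olfr55 sums and 0.65 to 3.10 in the Olfr239 sums, and 12 of them, including Krt5, Krt14, Ascl3, Cftr and Trpm5, had no UMI in either population. In the authors' clustering of mature neurons without receptor genes, 70 of the 71 Olfr239 neurons were in the Ventral cluster and 1 in Dlg2+ V., while 44 Olfr55 neurons were in Calb2+ V. and 31 in Ventral.

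The populations differed most in 3 genes of calcium-binding or calmodulin-linked proteins. Compared with Olfr239 neurons, Olfr55 neurons held more Calb2 and less S100a5 and Pcp4l1. An S100a5 UMI was still found in 64 of 75 Olfr55 neurons (85.3%). Across all genes, 2047 non-receptor genes passed the filter on low counts and 71 of them (3.47%) differed at an adjusted p under 0.05 (edgeR quasi-likelihood test with the mouse as a block, Benjamini-Hochberg adjustment over all genes tested). Of these, 36 (1.76%) were higher and 35 (1.71%) lower in Olfr55 neurons. At an unadjusted p under 0.05 there were 272. With library size alone in place of scaling factors, the split was 47 higher and 29 lower, with the median of all genes at 0.065 on the log2 scale against 0.0049 here. DESeq2 called 28 genes, all of them among the 71, and 38 were called among neurons with exactly 1 receptor gene detected. The levels of the 4 mice did not overlap between the populations for 53 of the 71 genes, against 139 of all 2047 (6.79%).

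**Figure D1:**
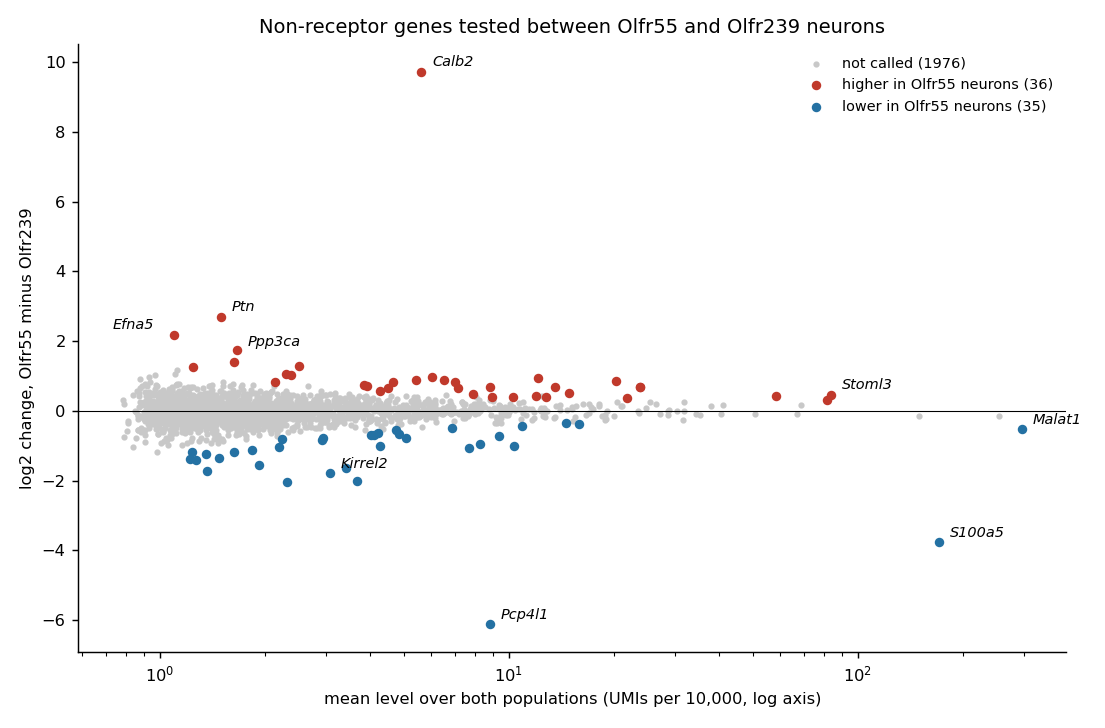
Each point is 1 of the 2047 non-receptor genes tested, with its mean level over both populations (UMIs per 10000, log axis) against its log2 change, Olfr55 minus Olfr239. Red points are the 36 genes higher and blue points the 35 genes lower in Olfr55 neurons at an adjusted p under 0.05, and grey points the rest. Calb2, Pcp4l1 and S100a5 lie far from the other genes, and the height of Calb2, which had no UMI in Olfr239 neurons, depends on the prior count of the fit.

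Calb2 (chromosome 8, 110137502 to 110168210, - strand) encodes calretinin, a cytosolic calcium buffer. Its level was 17.5, 9.29, 5.802 and 12.4 in the Olfr55 neurons of mice 1 to 4 and 0 in the Olfr239 neurons of each mouse, where no UMI was counted in any of 71 neurons. A count of 0 in 71 neurons allows up to 4.23% of neurons with a UMI. Against a floor of 3 counts over the 4 Olfr239 sums, Calb2 was at least 137-fold higher in Olfr55 neurons (adjusted p = 3.38e-21, edgeR). A Calb2 UMI was found in 58 of 75 Olfr55 neurons (77.3%, median depth 4879 UMIs), and in 1.36% of 1768 Mv2 microvillar cells (median depth 5081 UMIs), 3.57% of Sus cells and 5.70% of HBC2 cells. At 3000 UMIs per neuron it was found in 74.6% of Olfr55 neurons.

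S100a5 (chromosome 3, 90608523 to 90611780, + strand) encodes an EF-hand calcium-binding protein that is abundant in olfactory neurons and known to follow their activity. Its level was 293.7, 318.8, 341.7 and 310.8 in the Olfr239 neurons of mice 1 to 4 and 22.2, 31.5, 19.6 and 23.8 in the Olfr55 neurons. The groups were far apart, and the gene was 13.6-fold higher in Olfr239 neurons (log2 change -3.77, SE 0.088, adjusted p = 1.3e-32, edgeR). Per neuron the median was 7 UMIs in Olfr55 and 153 in Olfr239 neurons. Among other cells an S100a5 UMI was found in 39.3% of 1768 Mv2 cells, 39.9% of 336 Sus cells and 47.2% of 544 HBC2 cells. How far free RNA adds to the counts in Olfr55 neurons was not tested. For scale, Malat1, a nuclear long non-coding RNA, had a mean level of 341.7 in Olfr239 neurons and 246.9 in Olfr55 neurons (log2 change -0.52, adjusted p = 9.64e-08, edgeR). Malat1 was chosen here after its values were seen.

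Pcp4l1 (chromosome 1, 171173262 to 171196268, - strand) encodes a small protein with a calmodulin-binding motif. It stood at 13.1, 18.6, 22.1 and 16.1 in the Olfr239 neurons of mice 1 to 4 and at 0.36, 0.11, 0.33 and 0.13 in the Olfr55 neurons, which held 10 UMIs of it in all. The gene was 69.7-fold higher in Olfr239 neurons (log2 change -6.12, SE 0.22, adjusted p = 3.05e-25, edgeR). A UMI was found in 67 of 71 Olfr239 neurons and in 7 of 75 Olfr55 neurons. Among other cells it was found in 81.1% of 1768 Mv2 cells, 87.8% of 336 Sus cells and 23.7% of 544 HBC2 cells, so these cells give no level for free RNA. Among neurons of other receptors in the same libraries, the level of Pcp4l1 was 0 in all 4 mice for Olfr295 and 0.063 to 0.14 for Olfr728. It was 0 to 0.29 for Olfr354 and 0 to 0.34 for Olfr827, beside 0.11 to 0.36 in Olfr55 neurons. These are the populations with a lower mean than Olfr55 neurons among the 42 compared below. Whether the 10 UMIs in Olfr55 neurons came from free RNA was not tested. At 3000 UMIs per neuron the gene was found in 95.1% of Olfr239 neurons and 7.46% of Olfr55 neurons.

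Hectd2os (chromosome 19, 36614052 to 36705641, - strand), a transcript annotated as antisense to Hectd2, had 32 UMIs in Olfr239 neurons and 0 in Olfr55 neurons. Its level in Olfr239 neurons was 0.73, 0.67, 1.14 and 0.70 in mice 1 to 4. With the floor of 3 counts over the 4 Olfr55 sums it was at least 11.6-fold higher in Olfr239 neurons. It did not pass the filter on low counts and was therefore not tested. A UMI was found in 23 of 71 Olfr239 neurons (32.4%) and in 0.45% of Mv2 cells.

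**Figure D2:**
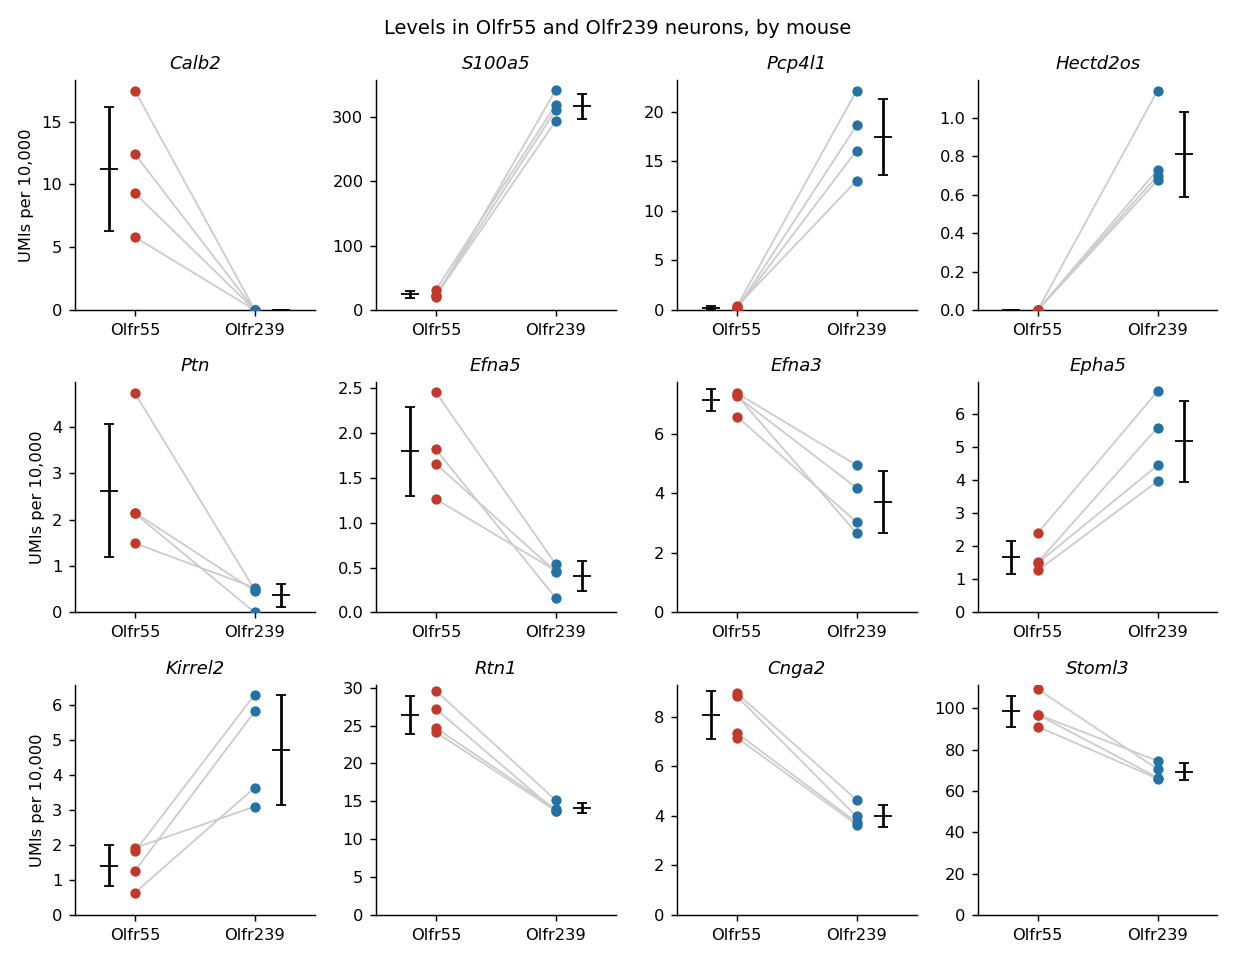
Levels (UMIs per 10000 non-receptor UMIs, linear axes from 0) of 12 named genes in the Olfr55 neurons (red) and Olfr239 neurons (blue), 1 point per mouse, with a grey line joining the populations of the same mouse and bars giving the mean and SD over 4 mice. The points of the populations do not overlap in any of the 12 panels, and the lines of the 4 mice slope the same way within each panel. Apart from Hectd2os, the panels show called genes with the same direction in all 4 mice, so this follows largely from their choice. Levels did not overlap for 53 of the 71 called genes and for 139 of all 2047 (6.79%).

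In a list of 34 genes of calcium-binding proteins, 8 passed the filter and Calb2, S100a5 and Pcp4l1 were the 3 called (37.5%, against 3.47% of all genes tested). The list was chosen with earlier results of these data known, and Calb2 and Pcp4l1 were named with the comparison. Both passed the filter only through the population in which they were high. The share is therefore no test of enrichment. The median log2 change of the 8 genes was -0.11, beside 0.0049 over all genes tested.

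Genes of ephrin signalling differed in opposite directions. The ligands Efna5 and Efna3, membrane-anchored ephrin-A proteins, were higher in Olfr55 neurons, and the receptor Epha5, which binds them, was higher in Olfr239 neurons. Efna5 (chromosome 17, 62604184 to 62881317, - strand) stood at 1.82, 2.46, 1.66 and 1.26 in the Olfr55 neurons and 0.16, 0.54, 0.46 and 0.47 in the Olfr239 neurons of mice 1 to 4. The lowest Olfr55 value was thus above the highest Olfr239 value, and the log2 change was 2.18 (SE 0.36, adjusted p = 3.43e-05, edgeR). For Efna3 the levels were 7.37, 7.26, 7.29 and 6.58 against 4.95, 4.18, 2.66 and 3.03 (log2 change 0.90, SE 0.16, adjusted p = 6.17e-05, edgeR). Epha5 (chromosome 5, 84054761 to 84417382, - strand) showed 1.27, 1.49, 2.40 and 1.52 in Olfr55 neurons against 3.97, 4.45, 6.69 and 5.595 in Olfr239 neurons, a log2 change of -1.64 (SE 0.19, adjusted p = 2.86e-08, edgeR). Both populations held ligand and receptor UMIs, in different proportions.

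Ptn (chromosome 6, 36714929 to 36810220, - strand), which encodes the secreted heparin-binding growth factor pleiotrophin, had levels of 4.73, 2.13, 1.49 and 2.15 in Olfr55 neurons and 0.49, 0, 0.53 and 0.47 in Olfr239 neurons. Mouse 1 was the highest among the Olfr55 sums, and every Olfr55 sum was above every Olfr239 sum (log2 change 2.70, SE 0.34, adjusted p = 1.14e-07, edgeR). Of the 33 genes on the axon guidance list, 7 passed the filter and these 4 were called (57.1%, against 3.47% of all genes tested), 3 higher and 1 lower in Olfr55 neurons. Efna5 and Ptn passed the filter only through the Olfr55 sums, and the list was chosen with earlier results known. The share is therefore no test of enrichment. Plxna1, Plxna4 and Robo2 had adjusted p values of 0.381, 0.534 and 0.943 (edgeR). The median log2 change of the 7 genes was 0.43.

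Kirrel2 (chromosome 7, 30447534 to 30457690, - strand) encodes a homophilic adhesion molecule whose level in olfactory neurons is known to follow activity. It was 0.64, 1.92, 1.82 and 1.27 in Olfr55 neurons and 3.65, 3.10, 6.31 and 5.83 in Olfr239 neurons of mice 1 to 4. The ranges did not meet, and the gene was 3.45-fold higher in Olfr239 neurons (log2 change -1.79, SE 0.23, adjusted p = 1.22e-07, edgeR). Kirrel2 was the only call among the 6 genes of the 33-gene adhesion list that passed the filter (16.7%, against 3.47% of all genes tested). Pcdh19, Cntn4, Ncam1, Ncam2 and Cadm1 had log2 changes between -0.35 and 0.43 and adjusted p values of 0.417 or more (edgeR). The list's median log2 change was -0.078. Kirrel3, a related adhesion molecule on the list that did not pass the filter and is named after its values were seen, had 32 UMIs in Olfr55 neurons and 0 in Olfr239 neurons (levels 0.77 ± 0.27 and 0, SD, n = 4) and was not tested.

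Genes of odorant transduction were called in 1 direction. Of 21 genes on the list 17 passed the filter and 5 were called (29.4%, against 3.47% of all genes tested), all higher in Olfr55 neurons: Gnal, Gng13, Adcy3, Cnga2 and Stoml3. Cnga2, the main subunit of the cyclic nucleotide-gated channel, stood at 8.82, 7.15, 8.95 and 7.34 in Olfr55 neurons and 3.97, 3.64, 4.64 and 3.73 in Olfr239 neurons, 1.96-fold higher (log2 change 0.97, SE 0.14, adjusted p = 2.29e-06, edgeR). Adcy3, the adenylyl cyclase, and Gnal, the olfactory G protein alpha subunit, were 1.63-fold and 1.61-fold higher (adjusted p = 1.52e-04 and 2.64e-07, edgeR). Their levels were 10.9 ± 2.73 against 6.76 ± 1.39 and 29.7 ± 3.31 against 18 ± 1.54 (SD, n = 4). Stoml3, a stomatin-family membrane protein of cilia, was 98.6 ± 7.65 against 69.4 ± 4.01, and Gng13, the gamma subunit, 92.1 ± 5.28 against 71.5 ± 2.72, the latter a 1.25-fold difference (log2 change 0.33, SE 0.069, adjusted p = 0.00159, edgeR). Without the mouse as a block Gng13 had an adjusted p of 0.0761, and its call was also lost with neurons thinned to 3000 UMIs (edgeR). DESeq2 called 3 of the 5, with adjusted p values of 0.109 for Adcy3 and 0.053 for Gng13.

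The other 12 transduction genes were not called. Omp was 73.9 ± 6.71 in Olfr55 neurons and 63.6 ± 2.57 in Olfr239 neurons (adjusted p = 0.251, edgeR), and the further channel subunits Cnga4 and Cngb1 had log2 changes of 0.29 and 0.49 (adjusted p = 0.383 and 0.341, edgeR). Rtp1 and Rtp2, which carry receptors to the cell surface, had log2 changes of -0.10 and -0.21 (adjusted p = 0.867 and 0.674, edgeR). The median log2 change of the 17 genes was 0.29, and 14 of the 17 estimates were above 0.

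**Figure D3:**
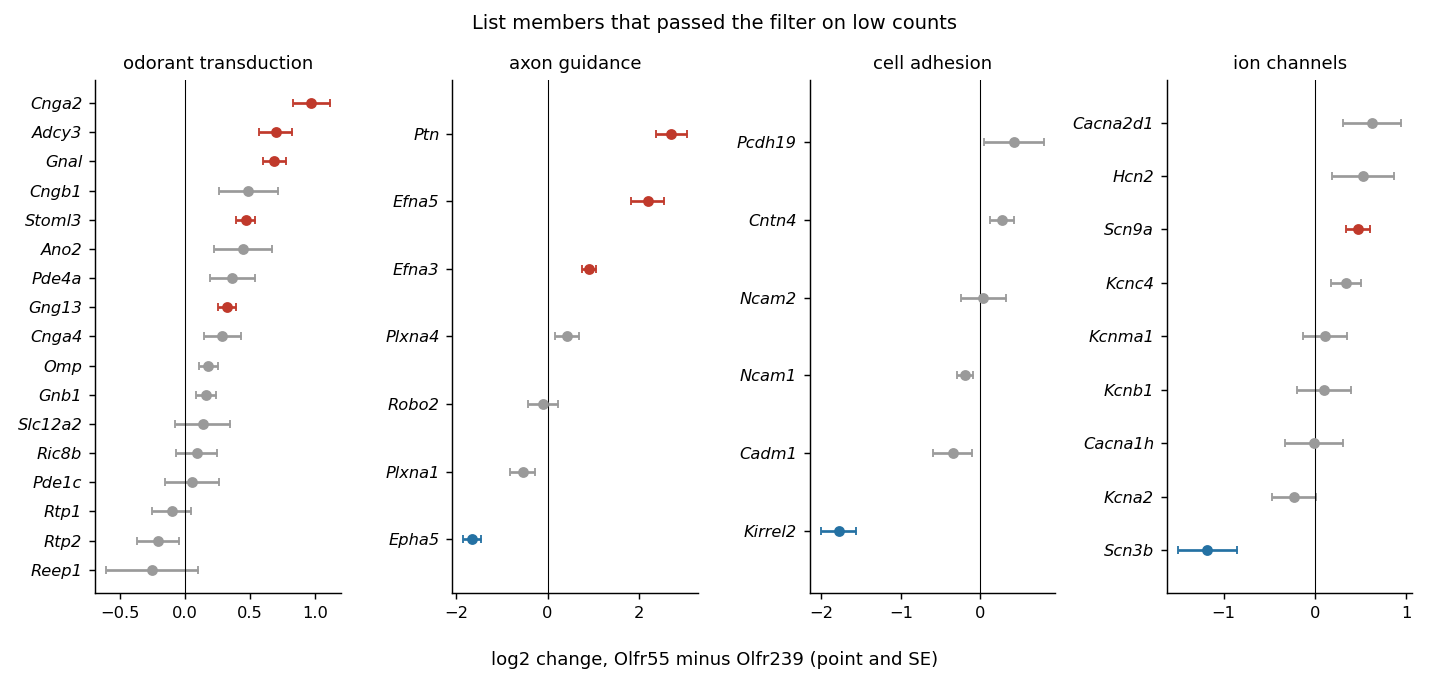
Log2 change, Olfr55 minus Olfr239, of each gene on 4 lists that passed the filter on low counts, as the estimate (point) and SE (bar) of the edgeR fit over 4 mice. Red points were called higher and blue points lower in Olfr55 neurons at an adjusted p under 0.05 over all 2047 genes, and grey points were not called. All 5 coloured points of the transduction list lie to the right of 0, and the 4 of the axon guidance list on both sides.

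Channel genes gave weak calls. Of 46 on the list 9 passed the filter and 2 were called (22.2%, against 3.47% of all genes tested). Scn3b, a sodium channel beta subunit, was 0.76 ± 0.37 in Olfr55 neurons and 1.71 ± 0.48 in Olfr239 neurons (SD, n = 4, adjusted p = 0.0233, edgeR). It passed the filter only through the Olfr239 sums, so the share called on this list is no test of enrichment. Scn9a, the sodium channel subunit Nav1.7, was 9.51 ± 2.24 and 6.29 ± 0.79 (adjusted p = 0.0364, edgeR), with values of 6.82 against 6.81 in mouse 1. Without the mouse as a block both calls were lost (adjusted p = 0.0508 and 0.0616, edgeR), and DESeq2 called neither. Scn3b was lost without mouse 1, 2 or 4 (adjusted p = 0.168, 0.0658 and 0.103) and Scn9a without mouse 2, 3 or 4 (adjusted p = 0.394, 0.158 and 0.179). The median log2 change of the 9 genes was 0.11.

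Lists of general neuronal state held few or no calls. With 3.47% of all genes tested called, 0 calls are usual for lists of 4, 5 or 15 genes. Such counts show no lack of change. Among 24 genes of receptor expression feedback and the unfolded protein response, 10 passed the filter and 1 was called (10.0%, against 3.47% of all genes tested). Hsp90b1, an endoplasmic reticulum chaperone, was 8.88 ± 1.70 in Olfr55 neurons and 5.19 ± 1.28 in Olfr239 neurons (log2 change 0.82, SE 0.14, adjusted p = 5.93e-05, edgeR). Its call was lost with DESeq2 (adjusted p = 0.069), which called 0 genes of this list, and with neurons thinned to 3000 UMIs (adjusted p = 0.0567, edgeR). Atf5, the factor induced by receptor expression, was 34.7 ± 1.04 and 36.0 ± 2.42 (adjusted p = 0.652, edgeR), and Hspa5, another chaperone of that compartment, 2.86 ± 0.47 and 3.45 ± 0.96 (adjusted p = 0.459, edgeR). In the activity list 4 of 24 genes passed the filter (Jun, Jund, Ier2 and Dusp1), and edgeR called 0 of them, with 0 at an unadjusted p under 0.05 and 0 by DESeq2. S100a5 and Kirrel2, described above as following activity, were called but were not on this list. Of 33 transcription regulators 15 passed and edgeR called 0, with 3 (Ebf2, Nfix and Tshz2) at an unadjusted p under 0.05 and 0 by DESeq2. Of 17 markers of immature neurons 5 passed and edgeR called 0, with 0 at an unadjusted p under 0.05 and 0 by DESeq2. Calb2, already counted on the calcium-binding list, was the call among the 6 of 15 zone and subset markers that passed (16.7%, against 3.47% of all genes tested). The medians of these 5 lists lay between -0.15 and 0.18 on the log2 scale.

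Of the 15 called genes that rose most in Olfr55 neurons with the same direction in all 4 mice, 9 were on none of the lists. Rtn1, reticulon 1 of the endoplasmic reticulum, was the most abundant of the 15, at 27.2, 24.1, 29.6 and 24.7 in Olfr55 neurons against 13.7, 13.8, 15.1 and 14.0 in Olfr239 neurons (log2 change 0.87, SE 0.093, adjusted p = 3.49e-09, edgeR). Dcdc2a, a doublecortin-domain protein, was 16.2 ± 2.98 against 8.06 ± 1.80 (adjusted p = 2.86e-08, edgeR). Prdx1, a peroxiredoxin, was 8.71 ± 0.20 against 4.31 ± 1.26 (adjusted p = 1.61e-05, edgeR), Gm11992 5.04 ± 0.34 against 2.68 ± 0.85, and Mslnl 3.70 ± 1.04 against 1.31 ± 0.49. Of the low genes, Ppp3ca, the catalytic subunit of the calcium-dependent phosphatase calcineurin, stood at 3.09, 1.92, 2.57 and 2.91 against 0.81, 0.81, 0.76 and 0.47, with no overlap (log2 change 1.76, SE 0.27, adjusted p = 6.74e-06, edgeR). Gadl1, a decarboxylase of acidic amino acids, was 2.39 ± 1.19 against 0.88 ± 0.13. Cotl1, an actin-binding protein, and Lrrn1, a membrane protein with leucine-rich repeats, were 2.40-fold and 2.04-fold higher. The call of Cotl1 was lost without mouse 1 or 3 (adjusted p = 0.164 and 0.0597), that of Lrrn1 without mouse 1 or 2 (adjusted p = 0.0688 and 0.168) and that of Gm11992 without mouse 2 (adjusted p = 0.0712). Lrrn1 also lost its call with neurons thinned to 3000 UMIs. Gm11992 also lost it with exactly 1 receptor gene detected and among neurons of the Ventral cluster alone. DESeq2 did not call Gadl1, Mslnl, Cotl1, Lrrn1 or Gm11992 (adjusted p = 0.425, 0.053, 0.687, 0.494 and 0.331).

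On the other side, 5730403I07Rik, a long intergenic non-coding RNA, was 4.15-fold higher in Olfr239 neurons, with 0.90 ± 0.28 against 3.74 ± 0.33 (adjusted p = 2.86e-08, edgeR). Olig1, a basic helix-loop-helix transcription factor that was not on the regulator list, was 0.95 ± 0.22 against 2.90 ± 0.58 (log2 change -1.56, SE 0.25, adjusted p = 1.32e-05, edgeR). Ndfip1, an adaptor of ubiquitin ligases, was 5.10 ± 0.81 against 10.3 ± 0.61, 2.09-fold higher in Olfr239 neurons (adjusted p = 5.98e-08, edgeR).

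The remaining genes of this set were low, with mean levels of 2.54 or less in either population. They were Prpf4, a splicing factor, Neu1, a lysosomal sialidase, Scg3, a secretory granule protein, Rsrc2, the cell cycle inhibitor Cdkn1a and Slc24a2, a potassium-dependent sodium-calcium exchanger. Their log2 changes lay between -1.73 and -1.13. That of Prpf4, -1.73, was -2.42 without mouse 1 (adjusted p = 4.68e-06, edgeR), whose Olfr55 level of 1.27 stood above the 0.38 to 0.43 of the other mice. Cdkn1a was the only one of the 6 whose levels overlapped between the populations. The calls of Cdkn1a and Rsrc2 were lost without mouse 1 (adjusted p = 0.087 and 0.086), and those of Scg3 and Slc24a2 without mouse 2 (adjusted p = 0.123 and 0.0703). Rsrc2 and Slc24a2 also lost the call with exactly 1 receptor gene detected, and Cdkn1a with neurons thinned to 3000 UMIs. Among neurons of the Ventral cluster alone, Cdkn1a and Slc24a2 were not called. Slc24a2 was also lost among neurons with at least 2000 detected genes. Of the 6, DESeq2 did not call Neu1, Scg3, Rsrc2, Cdkn1a or Slc24a2 (adjusted p = 0.319, 0.281, 0.593, 0.467 and 0.357).

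Olfr55 neurons were not uniform. The 44 neurons in the authors' Calb2+ V. cluster all held Calb2 UMIs, with a median of 8.5 per neuron, and 14 of the 31 in the Ventral cluster did (45.2%), with a median of 0 and a highest count of 4. Mouse 1 had 17 of its 20 Olfr55 neurons in Calb2+ V., and the other mice 47.4% to 53.3%. S100a5 was 10.1 ± 0.96 in the sums of the Calb2+ V. neurons, with a range of 9.14 to 11.4, and 83.8, 52.4, 34.0 and 36.1 in those of the Ventral neurons of mice 1 to 4, of which mouse 1 had 3. The Ventral Olfr239 neurons stood at 293.7 to 330.8. Efna3 was 8.57 ± 0.58, 4.82 ± 0.77 and 3.74 ± 1.01 in the same order, Stoml3 107 ± 7.95, 86.3 ± 7.15 and 69.4 ± 4.12, whereas Epha5 was 1.67 ± 0.64, 1.76 ± 0.27 and 5.198 ± 1.25. These values are a description, since the clusters were drawn from the same genes.

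When the comparison was restricted to the neurons of both populations in the Ventral cluster, an alternative chosen after seeing the data, 879 genes were tested and 27 called (3.07%), all of them among the 71. S100a5 and Pcp4l1 had log2 changes of -2.77 and -6.07 (SE 0.12 and 0.33, adjusted p = 1.97e-35 and 2.45e-29, edgeR), and Calb2, with fewer counts, did not pass the filter. Epha5, Kirrel2 and Olig1 were called, with log2 changes of -1.67, -1.43 and -2.32, as were Gnal, Adcy3 and Cnga2. Efna3 had a log2 change of 0.42 (adjusted p = 0.458), Stoml3 0.26 (adjusted p = 0.138) and Gng13 0.27 (adjusted p = 0.106) and were not called (edgeR). Mouse 1 entered this fit with 3 Olfr55 neurons.

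The populations were then set among 42 receptor populations, those for which every mouse gave 5 neurons or more. S100a5 ranked 39 of 42 in Olfr55 neurons and 11 in Olfr239 neurons, with population means from 5.21 to 569 and a median of 161. Pcp4l1 ranked 38 and 15, and its mean was under 0.1 in 3 populations. Calb2 ranked 3 in Olfr55 neurons, after Olfr728 neurons (30.9 ± 4.40) and Olfr1507 neurons (26.5), and its mean was under 0.1 in 15 populations, Olfr239 among them. Hectd2os ranked 4 in Olfr239 neurons, after Olfr455, Olfr1564 and 1 other population, and under 0.1 in 24. Kirrel2 and Epha5 were near the bottom in Olfr55 neurons, at ranks 39 and 40, and near the middle in Olfr239 neurons, at ranks 22 and 21. Of the transduction genes, Cnga2 was at ranks 11 and 37 and Gnal at ranks 10 and 39. Along the order of 42 means, the mean ± SD of neighbours overlapped in all 41 pairs for S100a5, Kirrel2, Epha5 and Hectd2os and in 40 of 41 for Calb2 and Pcp4l1. The exception for Calb2 was Olfr55 itself, whose 5.802 to 17.5 lay below the 22.1 to 30.0 of Olfr1507 neurons.

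**Figure D4:**
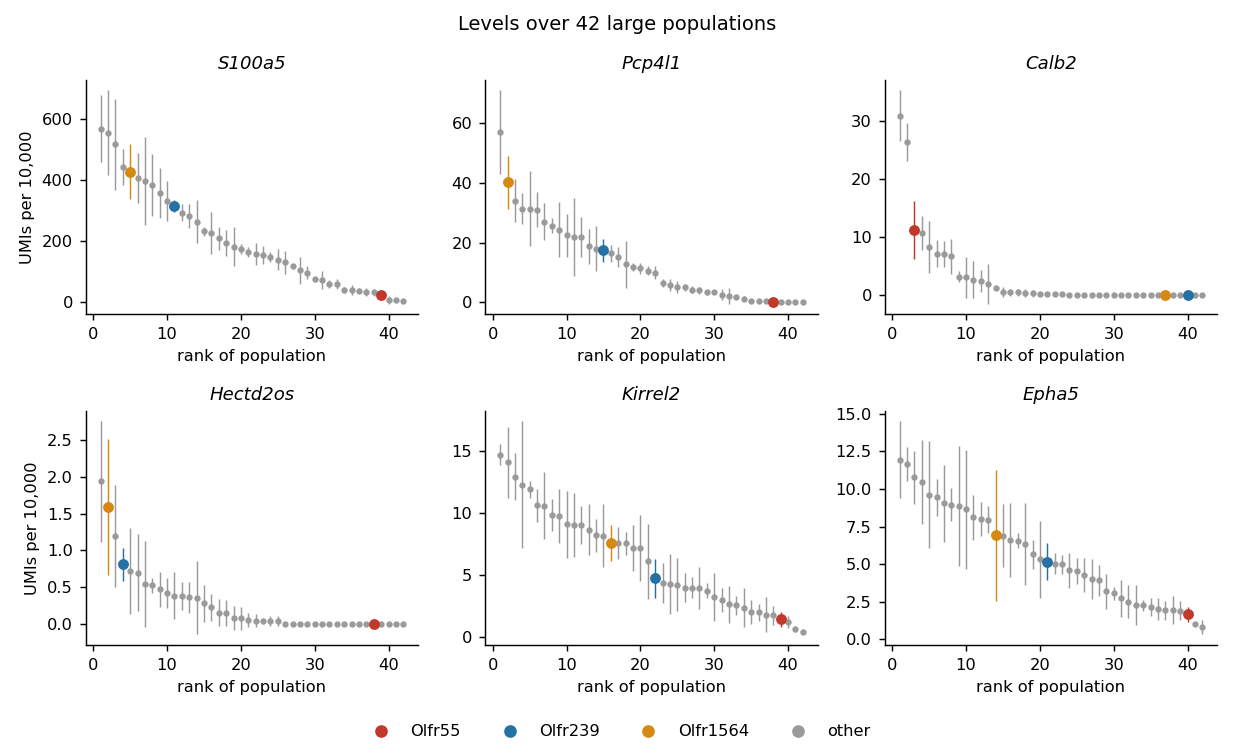
Mean level (UMIs per 10000 non-receptor UMIs) and SD over 4 mice of 6 genes in each of 42 receptor populations, ordered from highest to lowest within each panel. Olfr55 neurons (red) lie near the low end for S100a5, Pcp4l1, Kirrel2 and Epha5 and at rank 3 for Calb2, and Olfr239 neurons (blue) lie in the upper part for S100a5, Pcp4l1 and Hectd2os, while populations at 0 have no order among themselves.

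In a single edgeR fit over the 42 populations, Olfr55 and Olfr239 neurons differed in 74 of 2207 genes (3.35%). In that fit 101 of 2207 genes (4.58%) differed between Olfr55 neurons and the mean of the 40 others, 65 higher and 36 lower, and 52 (2.36%) between Olfr239 neurons and the same mean, 35 higher and 17 lower. Without scaling factors the split for Olfr55 was 88 higher and 26 lower, and with no filter on low counts the splits were 227 higher and 11 lower for Olfr55 and 117 and 1 for Olfr239. The mean is taken over log values and has no meaning for a gene with no UMI in some population, which leaves 88 of 2159 (4.08%) and 43 of 2159 (1.99%). Without mouse 1 the counts fell to 58 for Olfr55 and 25 for Olfr239, and without mouse 3 that for Olfr239 fell to 33. These contrasts share the other populations, and their values are given side by side. Of the 29 named genes with a UMI in every population, 13 were called for Olfr55 alone, 7 for Olfr239 alone, 6 for both and 3 for neither. These genes were named because they were called between Olfr55 and Olfr239 neurons in the same sums. Frequent calls among them follow largely from that choice. Whether the contrasts differ was tested only by the direct comparison above. Efna3 was 0.73 above the mean on the log2 scale in Olfr55 neurons (adjusted p = 3.25e-08) and -0.16 in Olfr239 neurons (adjusted p = 0.703). Kirrel2 and Epha5 were at -1.85 and -1.50 in Olfr55 neurons (adjusted p = 4.42e-14 and 1.14e-10, edgeR) and at -0.093 and 0.14 in Olfr239 neurons (adjusted p = 0.886 and 0.79, edgeR). Cnga2, Gnal, Adcy3 and Gng13 were at -0.65, -0.47, -0.57 and -0.33 in Olfr239 neurons, each called, and at 0.28, 0.21, 0.11 and -0.0095 in Olfr55 neurons, none called (adjusted p = 0.132 or more, edgeR). Stoml3 was the reverse, at 0.30 in Olfr55 neurons (adjusted p = 0.00087, edgeR) and -0.16 in Olfr239 neurons (adjusted p = 0.288, edgeR). S100a5 was called on both sides of the mean, at -2.41 in Olfr55 neurons and 1.33 in Olfr239 neurons (SE 0.20 and 0.13).

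For scale, the same paired fit was run between the 3 populations with the most neurons apart from these, Olfr728 (83 neurons), Olfr1226 (79) and Olfr1348 (79). It called 8.83% of genes between Olfr728 and Olfr1226, 13.2% between Olfr728 and Olfr1348 and 1.74% between Olfr1226 and Olfr1348, so that the 3.47% between Olfr55 and Olfr239 lay within the range of these 3 pairs. Against these populations Olfr55 differed in 4.75%, 4.09% and 6.50% of genes and Olfr239 in 10.2%, 8.07% and 8.62%, in the order Olfr728, Olfr1226 and Olfr1348. Neuron numbers and depth differ between these pairs and bear on the share called.

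The nearest further receptor of the locus, Olfr1564, had 26 neurons. Between Olfr239 and Olfr1564 neurons 6 of 725 genes were called (0.828%), with 64 at an unadjusted p under 0.05, and between Olfr55 and Olfr1564 neurons 70 of 1173 (5.97%). Among genes that were also tested between Olfr239 and Olfr1564, 56 of 722 were called between Olfr55 and Olfr1564, and 55 of 723 between Olfr55 and Olfr239. Among those called, and chosen after their values were seen, Pcp4l1, Dlg2, Ckb and Mslnl were lower and Cmip was higher in Olfr239 neurons. Dlg2 had levels of 1.63 ± 1.17 in Olfr239 and 8.02 ± 1.90 in Olfr1564 neurons (log2 change -2.24, SE 0.30, adjusted p = 0.0014, edgeR).

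Across the 4 populations of the locus, S100a5 was 24.3 ± 5.13 in Olfr55, 316.3 ± 19.9 in Olfr239, 429 ± 90.1 in Olfr1564 and 726 ± 101.6 in Olfr63 neurons. Pcp4l1 took the same order, at 0.23 ± 0.13, 17.5 ± 3.85, 40.2 ± 8.92 and 61.0 ± 12.1 (SD, n = 4 mice). Olfr239 and Olfr1564 neurons differed in Pcp4l1 (adjusted p = 0.000686, edgeR), whereas S100a5 was not called between them (log2 change -0.44, adjusted p = 0.277, edgeR), with 318.8 against 306.2 in mouse 2. Calb2 had no UMI in Olfr239, Olfr1564 or Olfr63 neurons. Hectd2os was at 0, 0.81 ± 0.22, 1.59 ± 0.93 and 1.79 ± 1.23, where the spread does not separate the last 3 populations. Efna3 took the opposite order, at 7.13 ± 0.37, 3.71 ± 1.05, 2.72 ± 0.90 and 1.30 ± 1.57, again with overlap among the last 3. Olfr63 neurons numbered 13, with 1 in mouse 3, and were not tested.

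**Figure D5:**
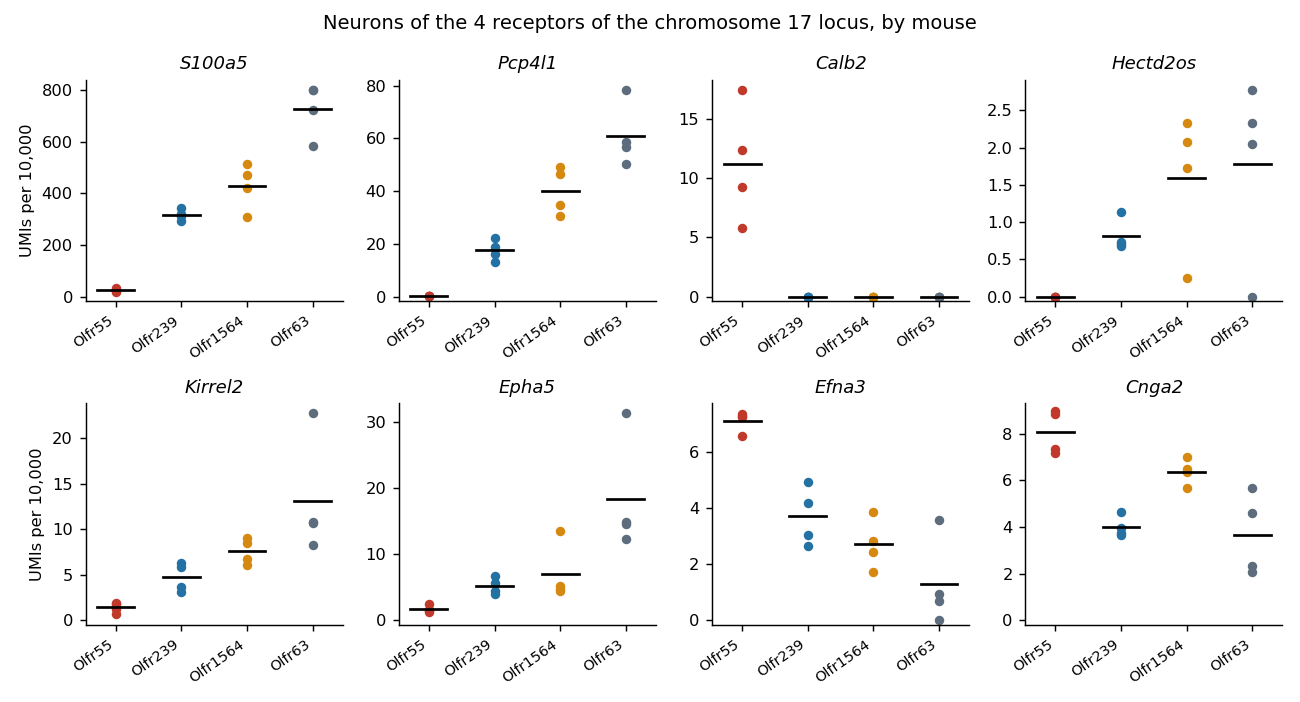
Levels (UMIs per 10000 non-receptor UMIs) of 8 genes in the neurons of the 4 receptors of the chromosome 17 locus, in the order of the genes along the chromosome, with 1 point per mouse and a bar at the mean of 4 mice. Olfr55 neurons have the lowest S100a5 and Pcp4l1 points and are the only ones with Calb2 above 0, and the Olfr63 points rest on 13 neurons.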

How the data were processed

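Per the labels and the study's methods, the authors aligned reads with Cell Ranger 6.0.1 to GRCm38 and an Ensembl annotation with re-annotated 3′ ends of receptor genes, and deposited raw UMI counts per cell with a cell table. They removed neurons in which more than 1 receptor passed an expression cutoff, cells with over 10% mitochondrial counts or under 1000 genes, and blood and immune clusters. Neurons with a weaker further receptor remain, and no doublet caller was run here. Counts were summed per mouse and receptor identity (4 libraries, 55511 genes, 1430 receptor genes left out). edgeR 4.0.16 in R 4.3.3 (TMM scaling, filterByExpr with a minimum count of 10, quasi-likelihood test, mouse as a block, Benjamini-Hochberg adjustment, threshold 0.05) gave the calls. It was also tested on simulated data, whose spread was set and not estimated from these sums, and the outcome is not reported here. SE is the log2 change divided by the root of F. DESeq2 1.42.0 was an alternative. Both populations of a mouse came from 1 animal and library, which pairs them. Their deviations from the group means correlated with r = 0.17, 0.089, 0.078 and 0.039 in mice 1 to 4.

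Genes were named by rule: Calb2, Pcp4l1 and Hectd2os, the 15 greatest log2 changes in each direction among called genes with the same direction in 4 mice, and called members of 11 lists (303 genes). The members and lists were chosen with earlier results of these data known, so the share called on a list is a description and no test of enrichment. Some genes that the rule names are not reported here. Intervals (95%, exact) and floors of 3 counts cover counting error only. Thinning took neurons to 3000 UMIs. The paragraph on the locus used the GENCODE M21 annotation of GRCm38.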

Additional observations from a re-analysis of the deposited data

Results flagged for a closer look

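In 7 of the 84 groups of 4 mice tested, 1 mouse stood apart from the other 3 by Dixon's criterion, which chance alone meets in about 1 in 20 groups. In Olfr239 neurons, Hectd2os was highest in mouse 3 at 1.14 (others 0.67 to 0.73), Ptn was lowest in mouse 2 at 0 (others 0.47 to 0.53), and Ppp3ca was lowest in mouse 4 at 0.47 (others 0.76 to 0.81). Also in Olfr239 neurons, Ndfip1 was highest in mouse 4 at 11.2 (others 9.85 to 10.1) and Adcy3 was lowest in mouse 1 at 4.70 (others 7.23 to 7.69). In Olfr55 neurons, Efna3 was lowest in mouse 4 at 6.58 (others 7.26 to 7.37) and Prpf4 was highest in mouse 1 at 1.27 (others 0.38 to 0.43).

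Each population held UMIs of the other receptor more often than other neurons did. An Olfr239 UMI was found in 9.33% of Olfr55 neurons (exact 95% interval 3.84% to 18.3%) and in 0.048% of 10334 other mature neurons. In mice 1 to 4 these were 0 of 20, 4 of 21, 2 of 15 and 1 of 19 Olfr55 neurons. An Olfr55 UMI was found in 21.1% of Olfr239 neurons (exact 95% interval 12.3% to 32.4%) and in 0.12% of the other mature neurons. In mice 1 to 4 these were 3 of 23, 4 of 17, 5 of 20 and 3 of 11 Olfr239 neurons. The intervals pool the neurons of 4 mice and leave out the spread between mice. The part of shared sequence between the genes in these shares was not tested.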

How the results depend on the processing

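Of 508 values computed for the 35 named genes tested, 453 kept direction and call, 55 kept direction and lost the call, and 0 reversed. All 35 were called in the main fit, and the alternatives reuse the same neurons. The kept directions and calls follow largely from that choice. 18 genes were called under every alternative that tested them. The 71 calls of the pair became 28 with DESeq2, 31 of 896 genes with neurons thinned to 3000 UMIs, 38 of 1202 with exactly 1 receptor detected and, in an alternative chosen after seeing the data, 27 of 879 within the Ventral cluster. The last 3 tested fewer neurons or UMIs. The calls numbered 52 to 69 with 1 mouse left out. Without the mouse as a block there were 57, 55 of them among the 71, and of the named genes Scn3b, Gng13 and Scn9a lost the call. The pairing changed no other call of a named gene. Without scaling factors 47 genes were higher and 29 lower, against 36 and 35.

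Against the mean of the other populations, the count for Olfr55 (101) was 238 with no filter on low counts and 58 to 77 with 1 mouse left out, lowest without mouse 1, and that for Olfr239 (52) was 118 and 25 to 46. For those counts without a filter the cause was not tested. Depth limits low genes: 2047 of 55511 genes passed the filter on low counts, and with no filter 75 of 13296 were called.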
